A study of Mus musculus with 6 samples.

Results

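*Klrg1* and 9 further genes of cytotoxic lymphocytes were followed in RNA-Seq counts of mouse lung. The set was taken by gene symbol and holds the receptor genes *Klrg1*, *Klrb1c*, *Klre1* and *Ncr1*, the granule genes *Gzma*, *Gzmb*, *Prf1* and *Nkg7*, and the transcription factor genes *Eomes* and *Tbx21*. All 10 symbols had 1 entry each among the 54532 genes of the deposited count table, and all 10 were among the 18689 genes tested, those that reached 0.5 CPM (a gene's counts scaled to a fixed library size) in any library. Whole lungs were perfused and taken from untreated mice at 2 months old, 3 of them WT C57BL/6J mice that were purchased and 3 ISM1-/- mice, a whole-animal knockout line generated in-house on the C57BL/6J background, with 1 library per mouse. Genotype and source of the animals therefore cannot be told apart.

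Natural killer (NK) cells and cytotoxic CD8 T cells kill infected or altered cells by releasing granules that hold perforin and granzymes. Perforin opens the membrane of the target cell and granzymes, which are serine proteases, enter and start cell death. Release is set by the balance of activating and inhibitory receptors, many of them lectin-like receptors encoded together on one chromosome in a cluster known as the NK gene complex. The T-box factors EOMES and T-bet (the product of *Tbx21*) drive the NK cell and effector T cell programs, and NK cells are common among the lymphocytes of mouse lung, many of them in its blood vessels.

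Library totals ranged from 37606133 to 42345042 counts. The targeted gene, *Ism1*, averaged 78.9 ± 2.88 CPM over the WT libraries and 69.1 ± 5.72 CPM over those labelled ISM1-/- (SD, n = 3 each, log2 fold change -0.19, edgeR adjusted p = 0.217). Transcript of the gene was thus present in both groups, and the level of *Ism1* does not check the labels. The lung markers *Sftpc* and *Scgb1a1* were abundant in every library, with *Sftpc* at 12457 ± 175 CPM in WT and 12366 ± 502 CPM in ISM1-/-. WT replicate 1 stood apart from the other WT libraries in the genes described here, so the results are given with and without it.

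All 10 genes had a higher mean in the ISM1-/- lungs, by between 1.59-fold (*Gzmb*) and 2.06-fold (*Klrg1*) in TMM-normalized CPM. By the quasi-likelihood test of edgeR, with p-values adjusted by Benjamini-Hochberg over all genes tested, *Klrg1*, *Gzma*, *Prf1*, *Klrb1c*, *Eomes* and *Klre1* rose with an adjusted p under 0.1, which is 6 of 10, where 1.38% of all genes tested were called higher. The same 6 genes had all 3 ISM1-/- libraries above all 3 WT libraries, a pattern found in the higher direction in 9.33% of all genes tested. *Klrg1* alone also reached a 2-fold rise with an adjusted p under 0.1, which 0.284% of all genes did in that direction. The median log2 fold change was 0.81 over the 10 genes and 0.00 over all genes tested. The 10 genes were chosen with earlier results of these libraries known, so these counts describe the set and are not independent evidence. In bulk RNA, more cells of a type and more RNA per cell cannot be told apart.

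**Figure D1:**
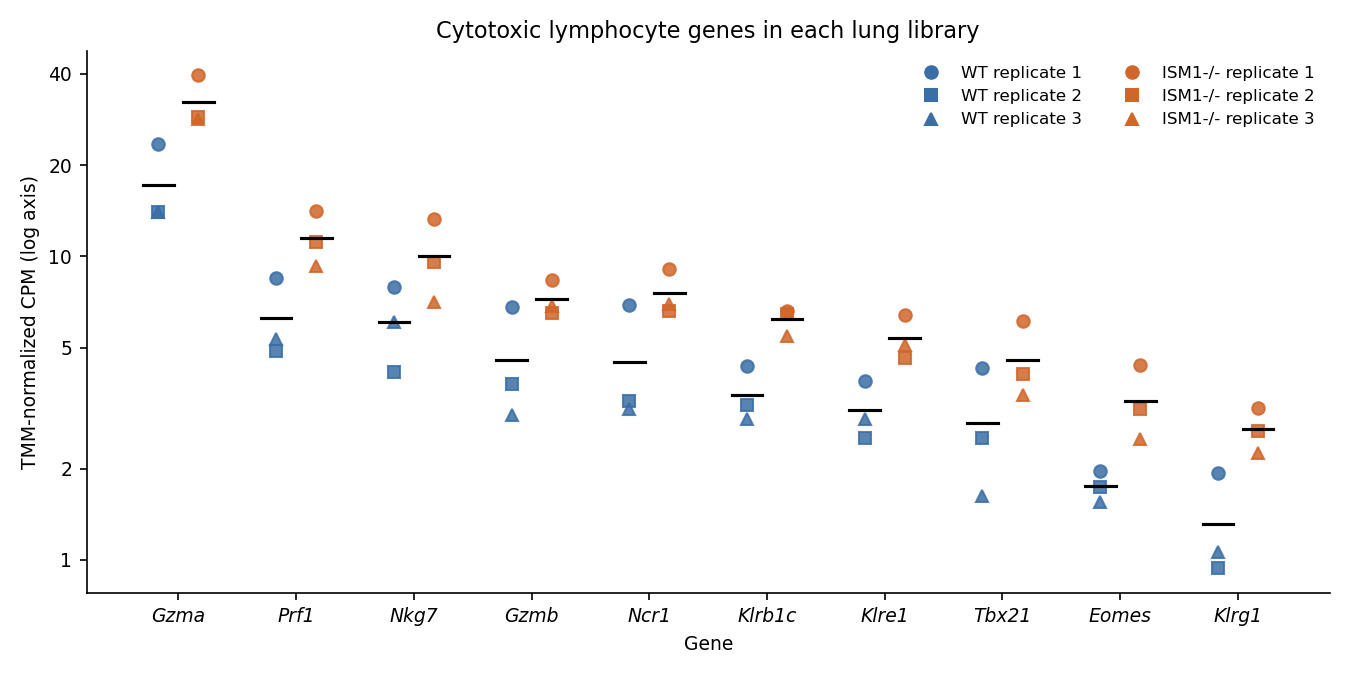
TMM-normalized CPM (log axis) of each of the 10 genes in each of the 6 libraries, with WT in blue and ISM1-/- in orange, the replicate number given by the marker shape and the mean of 3 libraries by the black line. WT replicate 1 is the highest WT library and ISM1-/- replicate 1 the highest ISM1-/- library in all 10 genes, and in *Gzmb*, *Nkg7*, *Ncr1* and *Tbx21* WT replicate 1 lies above at least 1 ISM1-/- library.

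*Klrg1* (ENSMUSG00000030114, GRCm38 chromosome 6, 122270596 to 122282882, reverse strand) encodes an inhibitory receptor of mature NK cells and effector T cells, found also on some regulatory T cells and type 2 innate lymphoid cells (ILC2). WT replicates 1 to 3 gave 73, 39 and 41 reads of the gene, and ISM1-/- replicates 1 to 3 gave 135, 101 and 88. Values of 3 libraries are listed in this replicate order throughout. These correspond to 1.94, 0.940 and 1.06 CPM in WT and to 3.17, 2.66 and 2.26 CPM in ISM1-/-. The groups did not overlap, and WT replicate 1 lay closest to the ISM1-/- libraries. Its log2 fold change of 1.05 (standard error 0.278, 95% interval 0.42 to 1.67, edgeR adjusted p = 0.0898) lies just past the 2-fold minimum. Like the rest of the set, *Klrg1* was chosen with earlier results of these same libraries known, so its rise here is not independent evidence.

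The other receptor genes of the set are typical of NK cells. *Klrb1c* (chromosome 6, 128778485 to 128789215, reverse strand) encodes the activating receptor NK1.1, the surface marker by which NK cells of C57BL/6 mice are usually recognised. It was at 4.35, 3.23 and 2.92 CPM in WT and at 6.63, 6.48 and 5.48 CPM in ISM1-/-. Its groups did not overlap, and its log2 fold change, 0.83, had the smallest standard error of the 10 genes (0.168, edgeR adjusted p = 0.0375). *Klre1* (chromosome 6, 129577905 to 129585827, forward strand) encodes a lectin-like receptor that pairs with the products of *Klri1* or *Klri2*. It was at 3.90, 2.53 and 2.92 CPM in WT and at 6.42, 4.61 and 5.13 CPM in ISM1-/-, again without overlap, and its rise was 0.79 as a log2 fold change (standard error 0.192, edgeR adjusted p = 0.0660). *Ncr1* (chromosome 7, 4337724 to 4345164, forward strand) encodes NKp46, an activating receptor that marks NK cells and related innate lymphoid cells. It was at 6.92, 3.35 and 3.15 CPM in WT and at 9.10, 6.62 and 6.95 CPM in ISM1-/-. WT replicate 1 was above ISM1-/- replicate 2, so the groups overlapped, and the log2 fold change of 0.76 (standard error 0.274, 95% interval 0.15 to 1.37, edgeR adjusted p = 0.201) did not pass.

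Among the granule genes, *Gzma* (chromosome 13, 113093825 to 113100981, reverse strand), which encodes granzyme A, had the most reads of the set, 885, 582 and 543 for WT against 1678, 1088 and 1110 for ISM1-/-. In CPM these are 23.5, 14.0 and 14.0 in WT and 39.5, 28.7 and 28.4 in ISM1-/-. Every ISM1-/- library was above every WT library, and the log2 fold change was 0.91 (standard error 0.199, edgeR adjusted p = 0.0481). *Prf1* (chromosome 10, 61297833 to 61304680, forward strand), the gene of perforin, was at 8.51, 4.89 and 5.33 CPM in WT and at 14.1, 11.1 and 9.33 CPM in ISM1-/-. Its groups did not overlap either, and its log2 fold change was 0.89 (standard error 0.215, edgeR adjusted p = 0.0663). *Gzmb* (chromosome 14, 56258838 to 56262260, reverse strand) encodes granzyme B, the granzyme that activates caspases. It was at 6.82, 3.81 and 3.0 CPM in WT and at 8.37, 6.51 and 6.84 CPM in ISM1-/-. WT replicate 1 lay among the ISM1-/- libraries, and the log2 fold change of 0.68 (standard error 0.258, 95% interval 0.10 to 1.25, edgeR adjusted p = 0.227) did not pass. *Nkg7* (chromosome 7, 43437073 to 43438249, forward strand) encodes a granule membrane protein needed for granule release. It was at 7.93, 4.17 and 6.10 CPM in WT and at 13.3, 9.62 and 7.07 CPM in ISM1-/-. ISM1-/- replicate 3 was below WT replicate 1, and the log2 fold change was 0.73 (standard error 0.256, 95% interval 0.15 to 1.30, edgeR adjusted p = 0.192).

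The promoters of the granule and receptor genes are shown as a description. Any tie between their letters and the expression values was not tested. RefSeq start sites (GRCm38.p6) gave 11 windows of 250 bases upstream for 9 of the 10 genes. *Klrg1* had no window and was not searched. The start sites used lay 574 bases inside the gene span given above for *Klrb1c* and 308 or 381 bases inside it for *Klre1*. They were searched on both strands for TGTGGT, the core letters bound by RUNX factors, which act with the T-box factors in cytotoxic lymphocytes. These letters were present for 7 of the 9 genes (*Gzma*, *Gzmb*, *Prf1*, *Nkg7*, *Klrb1c*, *Ncr1* and *Klre1*), in 8 of the 11 windows, and in 14.0% of all 32851 windows or 15.9% of all genes with a window. The T-box letters GGTGTGA were found only for *Nkg7* among the 9 and in 3.33% of all windows, the ETS letters AGGAAG for 5 of the 9 and in 29.5%, and the STAT letters TTCNNNGAA for *Nkg7* only and in 7.02%. The motifs were chosen after the expression values were known, and a match is a description of the letters and not a binding site. The windows of *Gzma* (chr13:113100982-113101231, reverse strand), *Gzmb* (chr14:56262335-56262584, reverse strand), *Prf1* (chr10:61297586-61297835, forward strand) and *Ncr1* (chr7:4337474-4337723, forward strand) follow, each read 5′ to 3′ toward the start site, with TGTGGT or its reverse complement in capitals.
Gzma: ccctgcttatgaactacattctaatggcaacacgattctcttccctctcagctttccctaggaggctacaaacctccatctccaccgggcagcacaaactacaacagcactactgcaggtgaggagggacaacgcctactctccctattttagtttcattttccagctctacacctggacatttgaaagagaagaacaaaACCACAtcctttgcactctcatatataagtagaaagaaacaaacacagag
Gzmb: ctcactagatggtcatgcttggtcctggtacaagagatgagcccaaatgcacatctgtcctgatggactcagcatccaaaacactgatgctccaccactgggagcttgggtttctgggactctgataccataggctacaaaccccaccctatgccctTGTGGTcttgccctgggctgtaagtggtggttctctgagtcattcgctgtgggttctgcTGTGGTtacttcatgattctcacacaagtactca
Prf1: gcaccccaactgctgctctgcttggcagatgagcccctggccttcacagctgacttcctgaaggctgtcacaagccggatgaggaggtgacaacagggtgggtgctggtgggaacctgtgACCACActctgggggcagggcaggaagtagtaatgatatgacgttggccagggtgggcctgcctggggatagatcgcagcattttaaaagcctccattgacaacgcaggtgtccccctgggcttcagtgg
Ncr1: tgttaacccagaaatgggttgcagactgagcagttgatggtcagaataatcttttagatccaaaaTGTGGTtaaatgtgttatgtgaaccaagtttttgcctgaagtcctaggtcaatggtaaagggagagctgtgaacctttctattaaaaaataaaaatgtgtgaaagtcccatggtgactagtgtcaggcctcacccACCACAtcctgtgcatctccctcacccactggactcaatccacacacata
*Gzma* and *Ncr1* carry the same letters, ACCACATCCT, beginning 50 bases before the start site in both printed windows. *Ncr1* has another RefSeq start site, at 4337715, and from that site the letters begin 41 bases before, so the shared position depends on the window chosen. This run was noticed in the printed sequences and was defined by extending the shared match until the sequences differed. Both genes therefore have it by construction, and its rarity elsewhere is no test of a shared element. It or its reverse complement occurs in 20 of the 32851 windows (0.0609%), with no other gene of the set among them. *Gzmb* has its matches 93 and 34 bases before its start site, and *Prf1* has 1 match, 130 bases before.

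The transcription factor genes had fewer reads. *Eomes* lies on chromosome 9, 118478212 to 118486132, on the forward strand. Its reads numbered 74, 72 and 60 for WT against 187, 119 and 98 for ISM1-/-. Its WT values were the tightest of the set, at 1.96, 1.73 and 1.55 CPM, and its ISM1-/- values of 4.40, 3.14 and 2.51 CPM were all above them. The log2 fold change of *Eomes* was 0.94 (standard error 0.227, edgeR adjusted p = 0.0657). It overlaps the antisense gene *Gm33460* over 574 bases at its locus, but *Gm33460* had between 1 and 11 counts per library. *Tbx21* (chromosome 11, 97098071 to 97115331, reverse strand) was the most variable, at 4.30, 2.53 and 1.63 CPM in WT and 6.11, 4.11 and 3.49 CPM in ISM1-/-. WT replicate 1 was above 2 of the 3 ISM1-/- libraries, and the log2 fold change was 0.70 (standard error 0.322, 95% interval -0.02 to 1.42, edgeR adjusted p = 0.328). *Klrb1c* lies over *Gm44511* on the same strand, which had 0 counts in every library, and the other 8 genes overlap no annotated gene.

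**Figure D2:**
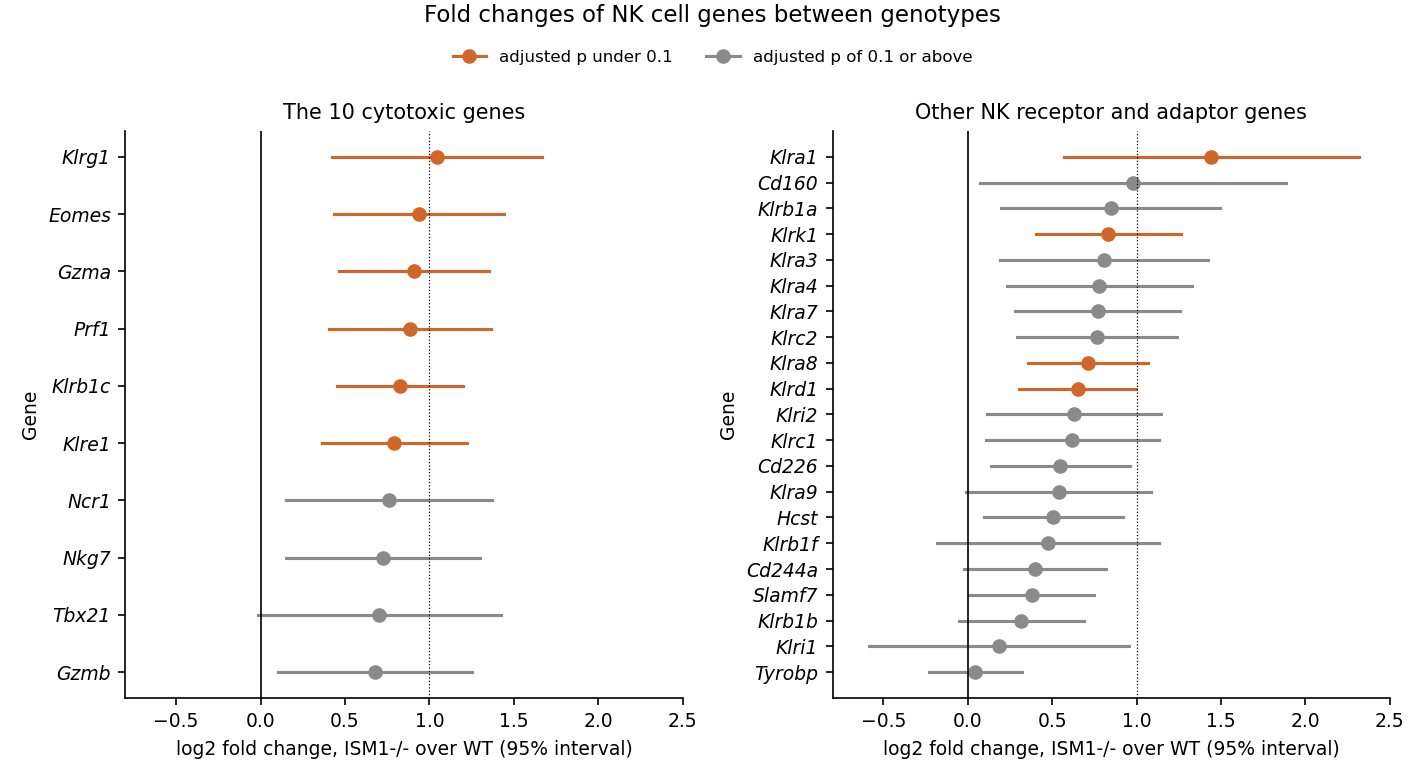
Log2 fold change of ISM1-/- over WT (points) with its 95% interval (lines) for the 10 genes on the left and for 21 other genes of NK receptors and their adaptors on the right, from edgeR's quasi-likelihood fit, with the dotted line at 2-fold. Genes with an adjusted p under 0.1 are orange, 6 on the left and 4 on the right, and every point lies to the right of 0.

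The 10 genes moved together from mouse to mouse. WT replicate 1 was the highest WT library for all 10 and ISM1-/- replicate 1 the highest ISM1-/- library for all 10. The lowest ISM1-/- library was replicate 3 for 7 genes and replicate 2 for 3 genes. Summed over the set, 2643, 1710 and 1613 reads came from WT lungs against 4722, 3170 and 3024 from ISM1-/- lungs, or 70.1, 41.2 and 41.7 CPM against 111.1, 83.5 and 77.5 CPM. The sums did not overlap, and the lowest ISM1-/- library exceeded WT replicate 1 by a small margin. The share of *Klrg1* among these reads was 2.28% to 2.76% for WT and 2.86% to 3.19% for ISM1-/-, so the groups did not overlap. The exact 95% binomial intervals of the single libraries, which cover counting error only, ran from 1.63% to 3.46% for WT and from 2.34% to 3.86% for ISM1-/-. The difference in this share between genotypes was not tested.

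Whether a gene passed depended on single libraries. Without WT replicate 1, 9 of the 10 genes had an edgeR adjusted p under 0.1, 8 of them with at least a 2-fold change, and the median log2 fold change was 1.11, while calls over all genes numbered 671 against 882 with all 6 libraries. Without ISM1-/- replicate 3, 7 genes passed, 3 of them at 2-fold, and calls over all genes rose to 1470. None of the 10 passed without WT replicate 2, without WT replicate 3, without ISM1-/- replicate 1 or without ISM1-/- replicate 2. At an unadjusted p under 0.05 in edgeR, 6, 7, 6 and 9 of the 10 were higher in those fits. In these 4 fits the number of calls over all genes also fell, from 882 to between 150 and 341. The median of the 10 genes stayed between 0.67 and 0.87. The share of all genes at an unadjusted p under 0.05 was not counted, here or for the lists below. With all 6 libraries, *Gzmb* (unadjusted p = 0.0256 in edgeR) ranked 2107 of the 18689 genes by p-value, and *Tbx21* (0.0546) ranked 3107. Many genes thus reach that cut, and counts at it are descriptions only. The log2 fold change of *Klrg1* lay between 0.85 and 1.43 over the 6 fits, and that of *Gzma* between 0.74 and 1.20. All 10 fold changes were above 0 in each of the 6 fits, the lowest being 0.43 for *Tbx21*. DESeq2 on the same counts gave 9 of 10 genes an adjusted p under 0.1, all but *Tbx21* (adjusted p = 0.191), with 1285 calls over all genes. At an adjusted p under 0.05 edgeR kept 2, *Gzma* and *Klrb1c*, with 455 calls over all genes.

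**Figure D3:**
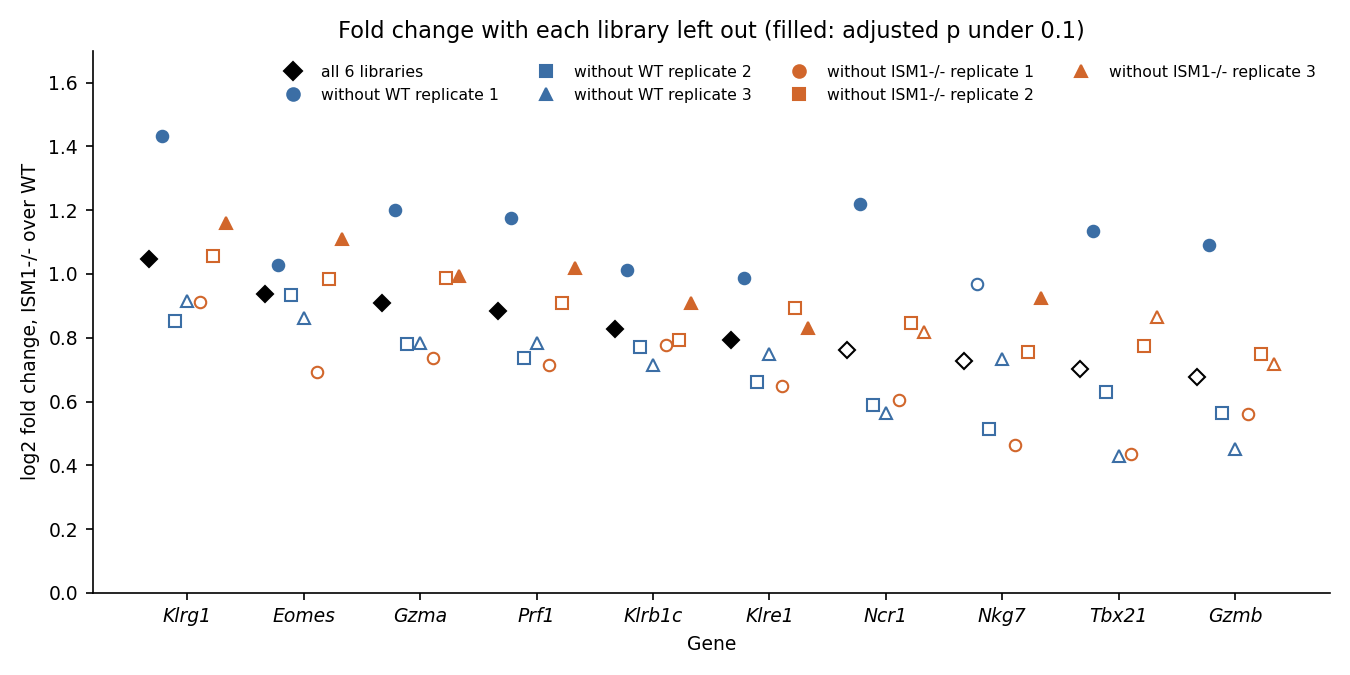
Log2 fold change of ISM1-/- over WT for each of the 10 genes in edgeR's quasi-likelihood fit of all 6 libraries (black diamonds) and with each library left out in turn (blue for a WT library, orange for an ISM1-/- library), where filled markers have an adjusted p under 0.1. Leaving out WT replicate 1 gave the highest value in 9 of the 10 genes, the exception being *Eomes*, and all values lie above 0.

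Levels of different genes were compared on the deposited FPKM values, which are scaled by gene length. *Gzma* was highest, at 18.4 ± 5.84 FPKM (SD, n = 3) in WT and 34.3 ± 6.96 FPKM (SD, n = 3) in ISM1-/-, followed by *Nkg7* at 8.72 ± 2.71 and 14.3 ± 4.62 FPKM. Both stood clear of the gene next in level in either genotype. *Gzmb*, *Ncr1*, *Prf1*, *Klrb1c* and *Klre1* followed in WT, between 2.02 and 3.17 FPKM, and each overlapped its neighbour in the order. *Klrg1* was among the lowest, at 0.930 ± 0.386 FPKM in WT and 1.90 ± 0.343 FPKM in ISM1-/-. Its range overlapped those of *Tbx21* and of *Eomes*, the lowest gene, in both genotypes. In ISM1-/- the ranges of *Klre1* (2.99 to 4.18 FPKM) and *Klrg1* (1.57 to 2.25 FPKM) did not overlap. The length behind the deposited FPKM was the same in every library for each gene but differed from the listed gene length for 7 of the 10 genes, for example 1544 against 3494 bases for *Klre1*. The order of levels therefore depends on that length, and without length scaling *Klrg1* was the lowest of the 10.

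The wider family of NK receptors was also examined. In a list of 23 other NK receptor and adaptor genes, 21 were tested, all 21 had a positive log2 fold change, and 4 rose with an edgeR adjusted p under 0.1, with none called lower. The median of the list was 0.63. For this and every list below, the share called higher over all genes tested was 1.38%. The share of all genes with a positive fold change was not counted, and their median was 0.00. *Klrd1*, which encodes CD94, the partner chain of the NKG2 receptors, was at 6.32 ± 1.50 CPM in WT and 9.93 ± 0.384 CPM in ISM1-/- (SD, n = 3 each), a log2 fold change of 0.65 (edgeR adjusted p = 0.0626). *Klrk1*, which encodes the activating receptor NKG2D, rose by 0.83 (edgeR adjusted p = 0.0556), from 5.57 ± 1.65 to 9.90 ± 1.41 CPM. *Klra8*, which encodes the Ly49H receptor for a cytomegalovirus protein, rose by 0.71 (edgeR adjusted p = 0.0498), and *Klra1* rose by 1.44 (edgeR adjusted p = 0.0966) at levels under 1 CPM. *Klrc1*, which encodes the inhibitory chain NKG2A, did not pass at 0.62 (edgeR adjusted p = 0.215). The *Klra* genes are close copies of one another, so reads may have been divided among them and their single values are uncertain. Over every gene of the table with a *Klr* symbol, all 26 of which lie on chromosome 6, 22 were tested, all 22 had a positive fold change, and 7 were called higher. *Klrg1* lies 6.50 megabases from *Klrb1c*, and *Klrb1c* lies 0.789 megabases from *Klre1*. Both counts of positive fold changes held when library totals or RLE size factors replaced TMM. With 1 library left out, 20 to 21 of the 21 NK receptor genes and 20 to 22 of the 22 *Klr* genes were positive, and without a filter on low counts 21 of 22 and 24 of 26 were. None of the 21 passed without WT replicate 2, WT replicate 3, ISM1-/- replicate 1 or ISM1-/- replicate 2, where 10, 11, 8 and 15 had an unadjusted p under 0.05, and 8 passed without WT replicate 1.

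A further list held other genes of granules and killing. Of 13 tested, 2 rose with an edgeR adjusted p under 0.1 and none was called lower, with a median log2 fold change of 0.08. *Srgn*, which encodes the proteoglycan that packs granule contents in many white blood cells, rose from 81.0 ± 2.44 to 114.4 ± 9.09 CPM (SD, n = 3 each), a log2 fold change of 0.50 (edgeR adjusted p = 0.0116). *Ctsw*, a protease gene of NK and CD8 T cells, rose by 0.69 (edgeR adjusted p = 0.0997). *Fasl*, which encodes the death ligand of cytotoxic cells, was at 0.744 ± 0.275 CPM in WT and 1.17 ± 0.0819 CPM in ISM1-/-, and *Gzmk*, a granzyme gene of memory CD8 T cells, was at 0.111 ± 0.0427 and 0.275 ± 0.252 CPM. Neither passed (edgeR adjusted p = 0.301 and 0.417). Of the 10 genes with a *Gzm* symbol, 4 were tested, and of these *Gzmm* alone had a negative fold change (-0.23, edgeR adjusted p = 0.756).

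Among 11 other transcription factor genes of these cells, edgeR called none higher and 1 lower. At an unadjusted p under 0.05, 2 were higher, and DESeq2 called 2 higher and 1 lower. That gene was *Nfil3*, whose product is needed for NK cell development and is also under clock control, and it fell by 0.46 in log2 terms, from 6.27 ± 0.477 to 4.55 ± 0.152 CPM (SD, n = 3 each, edgeR adjusted p = 0.0792), where 3.34% of all genes were called lower. *Zeb2*, a factor of NK cell maturation that many lung cells express, was at 174.5 ± 20.2 and 169.7 ± 2.40 CPM.

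Of 14 cytokine, chemokine and cytokine receptor genes tested, 1 rose. This was *Ccl5*, a chemokine gene of NK and memory T cells, from 12.7 ± 4.07 to 24.5 ± 6.79 CPM (SD, n = 3 each), a log2 fold change of 0.95 (edgeR adjusted p = 0.0671). *Il2rb*, which encodes a chain of the IL-15 receptor on which NK cells depend, was at 15.0 ± 2.76 and 23.5 ± 7.78 CPM (log2 fold change 0.65, edgeR adjusted p = 0.160). *Ifng*, the gene of interferon gamma, was below the filter, at 0.171 ± 0.0593 and 0.272 ± 0.126 CPM. The *Ifng* levels are too low for a comparison at this depth.

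Genes of maturation and trafficking all had positive fold changes, 13 of 13, with a median of 0.24, and 3 rose with an edgeR adjusted p under 0.1. With library totals only or without a filter 12 of 13 were positive, and with 1 library left out 12 or 13 were. None of the 13 passed without WT replicate 2, WT replicate 3, ISM1-/- replicate 1 or ISM1-/- replicate 2. *Cxcr6*, a chemokine receptor gene of tissue lymphocytes, rose by 0.65 (edgeR adjusted p = 0.0539), and *Itga2*, which encodes the integrin chain CD49b of NK cells and of other lung cells, by 0.23 (edgeR adjusted p = 0.0997). *S1pr5*, which lets mature NK cells leave tissues for the blood, was at 4.47 ± 1.34 CPM in WT and 7.44 ± 1.51 CPM in ISM1-/-, without overlap, and did not pass (log2 fold change 0.74, edgeR adjusted p = 0.122). *Cma1*, a protease gene of mast cells, was at 1.41 ± 0.0991 and 2.17 ± 0.361 CPM (log2 fold change 0.63, edgeR adjusted p = 0.148).

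No gene of the ligands was called, with 11 tested and 0 past an edgeR adjusted p of 0.1. At an unadjusted p under 0.05, 2 of them were higher and 0 lower, and DESeq2 called 1 higher. *Cdh1*, which encodes E-cadherin, a ligand of KLRG1 on epithelial cells, was at 381.8 ± 39.9 CPM in WT and 370.9 ± 1.86 CPM in ISM1-/- (log2 fold change -0.04, 95% interval -0.21 to 0.13).

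**Figure D4:**
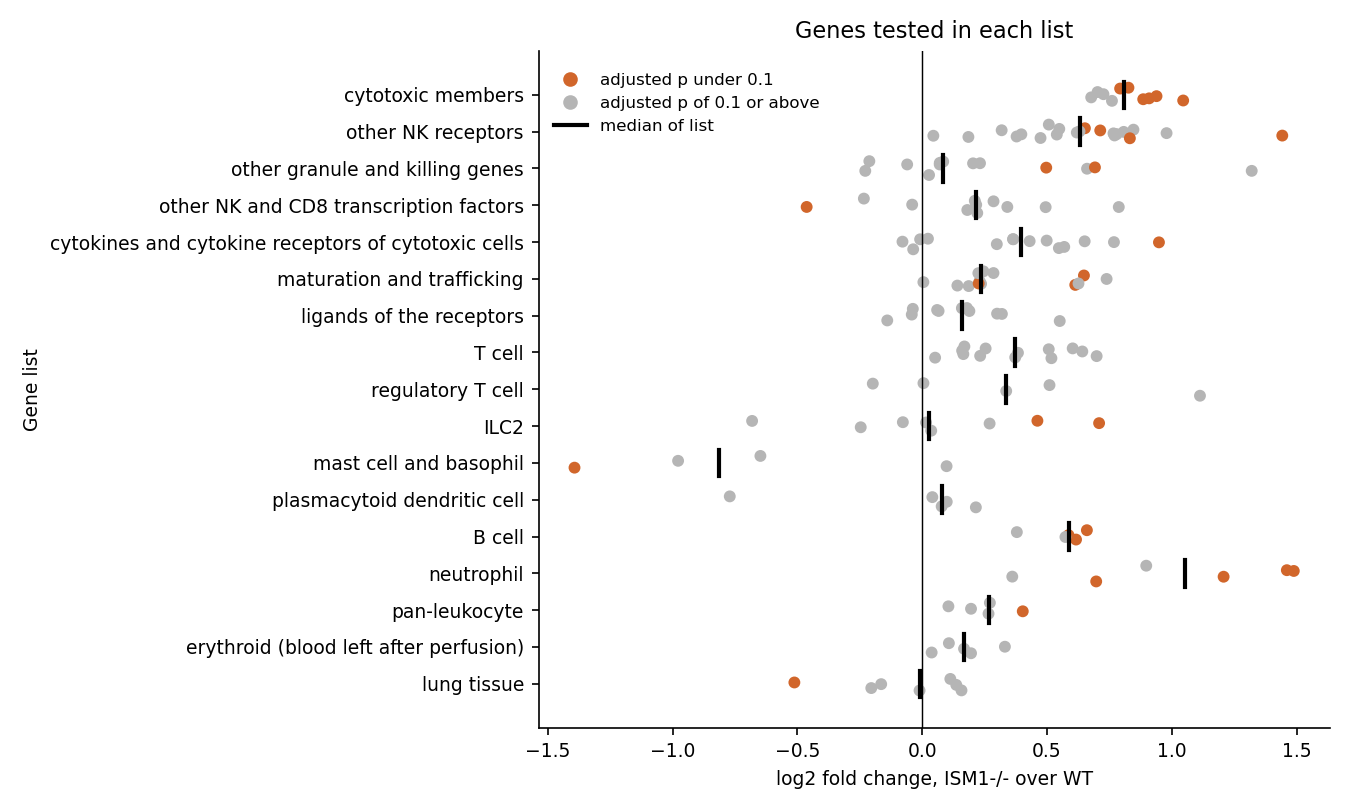
Log2 fold change of ISM1-/- over WT of each gene tested (points, orange with an adjusted p under 0.1 in edgeR's quasi-likelihood test) in the set of 10 genes and in 16 other lists, with the list median as a black bar. The medians are 0.81 for the 10 genes, 0.63 for the other NK receptors, 0.59 for B cells, 0.37 for T cells and 1.05 for neutrophils.

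*Klrg1* and the granule genes are shared by several kinds of cell, so markers of these cells were read from the same fit. T cell genes did not pass, 0 of 13 in edgeR, with 5 at an unadjusted p under 0.05, all 5 higher, and 4 past an adjusted p of 0.1 in DESeq2. Their median was 0.37. *Cd3e* was at 6.03 ± 1.62 and 8.61 ± 2.40 CPM (log2 fold change 0.52, edgeR adjusted p = 0.295). The CD8 genes *Cd8a* and *Cd8b1* were at 0.16 each on the log2 scale (95% intervals -0.54 to 0.87 and -0.47 to 0.79), and *Cd4* was at 0.17. Summed T cell CPM ranged from 69.9 to 118.3 in WT and from 86.1 to 138.8 in ISM1-/-. WT replicate 3, low in the cytotoxic genes, was the highest WT library. *Cd8a*, for example, was at 5.99, 6.53 and 14.5 CPM in WT and at 13.4, 8.83 and 8.02 CPM in ISM1-/-. The T cell median therefore depended on single libraries. Without WT replicate 3 it was 0.67, against 0.74 for the cytotoxic genes. Without ISM1-/- replicate 1 it was 0.18, against 0.67.

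Of the ILC2 list, 2 of 8 tested genes rose, *Il7r* by 0.46 (edgeR adjusted p = 0.0298) and *Icos* by 0.71 (edgeR adjusted p = 0.0446). Both are also expressed by T cells, where *Il7r* encodes a receptor of lymphocyte survival and *Icos* a costimulatory receptor. At an unadjusted p under 0.05 in edgeR, 2 genes of this list were higher and 1 lower. The lower gene was *Areg* (log2 fold change -0.68, edgeR adjusted p = 0.306). In the same list *Il1rl1*, which encodes the IL-33 receptor, and *Gata3* had log2 fold changes of -0.08 and 0.02 (95% intervals -0.45 to 0.30 and -0.28 to 0.31). *Il5* and *Il13* were below the filter. Of the 8 genes tested, 5 had a positive and 3 a negative fold change, with a median of 0.03. Whether the other genes of the list are particular to ILC2 was not examined. In the regulatory T cell list 0 of 5 passed in edgeR, with 1 of 5 higher at an unadjusted p under 0.05 and 0 in DESeq2, and *Foxp3* was at 0.929 ± 0.238 and 1.32 ± 0.727 CPM. Mast cell and basophil genes had the opposite sign in 3 of 4 genes tested, and *Mcpt4*, a mast cell protease gene, fell by 1.39 (edgeR adjusted p = 0.0885). The mast cell gene *Cma1*, counted above with maturation and trafficking, had a positive log2 fold change (0.63, edgeR adjusted p = 0.148). None of 5 plasmacytoid dendritic cell genes passed in edgeR or in DESeq2, and 0 had an unadjusted p under 0.05.

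Markers of other white blood cells were also called higher in ISM1-/-. In the B cell list 3 of 5 genes rose. Among them, *Ms4a1* and *Cd79a*, which encode CD20 and a chain of the B cell receptor, rose by 0.66 and 0.59 (edgeR adjusted p = 0.0663 and 0.0856). These calls depended on single libraries. With 1 library left out, 5 B cell genes passed without ISM1-/- replicate 3 and 0 in every other such fit, though all 5 stayed positive. In the neutrophil list 4 of 6 rose, the calprotectin genes *S100a8* by 1.49 and *S100a9* by 1.46 (edgeR adjusted p = 0.0162 each), the chemokine receptor gene *Cxcr2* by 1.21 and the growth factor receptor gene *Csf3r* by 0.70 (edgeR adjusted p = 0.0471 and 0.0970). With 1 library left out, 2 to 6 neutrophil genes passed. *Ptprc*, which encodes the pan-leukocyte marker CD45, rose by 0.40 (edgeR adjusted p = 0.0546), from 138.9 ± 11.5 to 183.7 ± 22.4 CPM (SD, n = 3 each). It was the only 1 of 5 pan-leukocyte genes to pass. None of the 5 passed without WT replicate 2, WT replicate 3, ISM1-/- replicate 1 or ISM1-/- replicate 2. Summed over these 5 genes, the pan-leukocyte level ranged from 434.9 to 501.9 CPM in WT and from 470.1 to 636.0 CPM in ISM1-/-.

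Relative to that pan-leukocyte sum, the cytotoxic set was at 0.140, 0.0947 and 0.0895 in WT and at 0.175, 0.148 and 0.165 in ISM1-/-. These ratios did not overlap, and WT replicate 1 again lay nearest to the other genotype. Relative to the T cell sum the genotypes overlapped, from 0.353 to 0.863 in WT and from 0.734 to 0.900 in ISM1-/-, and so did the ratios to the B cell sum (0.372 to 0.654 and 0.544 to 0.673) and to the neutrophil sum (0.622 to 1.36 and 0.717 to 0.971). The part of a general change in leukocytes in the result was not tested.

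Blood left after perfusion was read from 5 erythroid genes, none of which passed in edgeR or in DESeq2, with 0 at an unadjusted p under 0.05. *Hbb-bs* was at 154.1 ± 86.4 and 176.5 ± 155.7 CPM. The summed erythroid level was 258.9, 135.4 and 445.3 CPM in WT and 148.2, 623.9 and 159.7 CPM in ISM1-/-. Its order differed from that of the cytotoxic genes. ISM1-/- replicate 1, the library highest in all 10 of them, had less erythroid RNA than WT replicates 1 and 3. Erythroid RNA need not follow white blood cells left in the vessels, and their part in the result was not tested. Of the lung tissue markers 1 of 7 was lower, *Scgb1a1*, the club cell secretory gene, by 0.51 (edgeR adjusted p = 0.0270).

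**Figure D5:**
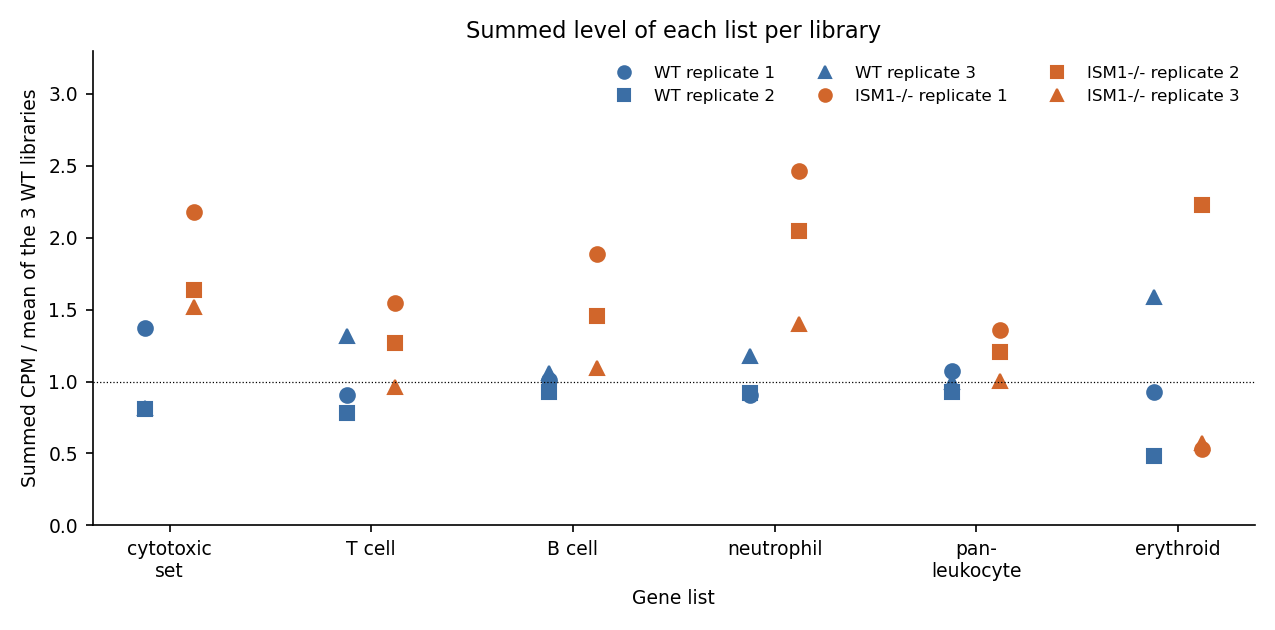
Summed TMM-normalized CPM of 6 gene lists in each library, divided by the mean of the 3 WT libraries (dotted line at 1), with WT in blue and ISM1-/- in orange and the marker shape giving the replicate number. The cytotoxic set lies between 1.52 and 2.18 in ISM1-/- and between 0.808 and 1.37 in WT, while the erythroid sums of the genotypes overlap.

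Genes were ranked by how closely their level followed that of *Klrg1* across the 6 libraries, by the root mean square difference of log2 CPM after each gene was centred on its own mean. The measure was taken over the 15875 genes whose mean was 1 CPM or more. It contains the difference between the genotypes, and the libraries share their depth and cell makeup, so it is a description. The nearest gene was *Prf1* (0.11), then *Gzma* (0.13), *Gm11346* (0.14), *Klrk1* (0.17) and *Ncr1* (0.17). All 9 other genes of the set ranked between 1 and 38 of 15875, with *Tbx21* last. *Gm11346* (chromosome 13, 24596347 to 24604925, reverse strand) is annotated as a transcribed processed pseudogene. It gave 99, 64 and 77 reads for WT against 211, 145 and 136 for ISM1-/-, a log2 fold change of 0.999 (edgeR adjusted p = 0.0489). Reads from the gene it was copied from could have been counted on it, so its value is uncertain.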

How the data were processed

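Lung RNA of 6 mice, 3 of each genotype, was sequenced by the authors after perfusion as strand-specific, poly-A enriched, paired-end libraries and mapped to GRCm38 with STAR. The counting program and its strand setting are not given in the sources used here. The authors deposited raw read counts per gene and the same values as FPKM, in which counts are divided by the library total and a gene length. The deposited counts went into edgeR (4.0.16, under R 4.3.3). A gene was tested if any library reached 0.5 CPM, and TMM factors scaled the libraries. Genotypes were compared by the quasi-likelihood test without covariates, with Benjamini-Hochberg adjustment and a threshold of 0.1. This is the threshold named in the study's results, whose own tool, DESeq2 (1.42.0 here), was an alternative. The intervals are 95% intervals from the same fit. CPM are TMM-normalized, and mean ± SD are over 3 libraries. The number of animals limits the precision. Each p-value sets the difference between genotypes against the variation between mice of 1 genotype, estimated in part across genes.

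The members and lists were chosen with earlier results of these data known. Genes named are the 10 members, *Ism1*, list genes with an adjusted p under 0.1, a set of markers named whatever their values, genes overlapping a member, and the 5 genes most like *Klrg1*. Single-gene results of some list genes that this rule names are not reported here. *Gzmm*, *Areg*, *Il5*, *Il13*, *Klri1* and *Klri2* were named after their values were seen, as was *Sftpc* as a tissue check. Of the symbols *Cd244* and *Cd244a*, both listed, only *Cd244a* matched a gene of the table. No pair of libraries of 1 genotype agreed within sampling noise (chi-square per degree of freedom from 5.61 to 21.9). Alternatives were DESeq2, RLE factors, library totals, other filters, an adjusted p under 0.05, the replicate number as a block and each library left out. The tests were tried on simulated counts before use.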

Additional observations from a re-analysis of the deposited data

How the results depend on the processing

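All 10 cytotoxic genes kept a positive fold change under each of the 14 alternatives, between 0.43 (*Tbx21*) and 1.43 (*Klrg1*) on the log2 scale. The number of the 10 called higher was 6, and it was 10 without a filter on low counts, 10 with the replicate number as a block, 2 at an adjusted p under 0.05, and between 0 and 9 with 1 library left out. The number past 2-fold was 1, against 0 at an adjusted p under 0.05 and between 0 and 8 with 1 library left out. Over all genes, 882 calls became 1632 without a filter, 455 at an adjusted p under 0.05 and 150 to 1470 with 1 library left out. With the 2-fold minimum, 106 calls became 37 at a mean above 2 CPM, 293 without a filter, 51 at 0.05 and 31 to 188 with 1 library left out. In the lists around the set, 23 calls became 36 in DESeq2, 47 without a filter, 8 at 0.05 and 3 to 42 with 1 library left out. The rank of *Klrg1* in level moved from 9 to 10 without length scaling. A stricter threshold gives fewer calls by construction, and the cause of the other changes was not tested.

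Same-numbered WT and ISM1-/- libraries did not deviate together (correlations of -0.0405, 0.0310 and 0.00101), not every library correlated best with its own number, and a shared number does not mean the same mouse. The replicate block is therefore given as a count only. Among single genes without a call, the sign of the log2 fold change turned for *Hbb-bs* with the block (-0.075). With 1 library left out it turned for 8 genes, whose values spanned -0.10 to 0.060 (*Zeb2*), -0.094 to 0.69 (*Cd8a*), -0.077 to 0.63 (*Cd8b1*), -0.084 to 0.70 (*Cd4*), -0.19 to 0.13 (*Il1rl1*), -0.10 to 0.14 (*Gata3*), -0.12 to 0.0041 (*Cdh1*) and -0.83 to 0.70 (*Hbb-bs*). Of the 691 single-gene values under an alternative, 509 kept their direction and their side of the threshold, 142 lost it, 25 gained it and 15 turned sign. Depth limits the low genes, since *Klrg1* had 39 to 135 counts per library.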
